A study of Mus musculus with 4 samples.

Results

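A set of 9 genes that mark granule cells of the dentate gyrus, Prox1, Dsp, Tdo2, C1ql2, Npnt, Calb1, Plk5, Lct and Stxbp6, were followed in hippocampal RNA of wild-type and Rp58 hetero-KO mice, the latter heterozygous for a knockout. The genes were chosen by name, as known markers of these neurons, with earlier results of these data known. They make up 9 of the 37325 genes and 12 of the 56605 probes on the arrays. Rp58, now named Zbtb18, encodes a zinc finger protein with a BTB domain that represses transcription. The 4 groups were wild-type (WT) mice at 4 months, Rp58 hetero-KO mice at 4 months, and both genotypes at 18 months, an age that other labels of the same samples give as 1.5 years or as a range from 12 to 18 months. Each group was 1 array holding a mixture of 3 independent total RNA samples, of which 200 ng was labelled with Cy3, so that no group had a replicate array. Strain, sex and the deleted part of the gene are not given in the sources used here.

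Granule cells are the principal neurons of the dentate gyrus. They receive the input of the entorhinal cortex and send their axons, the mossy fibres, to hilar mossy cells and to pyramidal cells of field CA3, and in rodents new ones are added through adult life. The homeodomain factor Prox1 sets and maintains their identity in the mouse, while the calcium buffer calbindin, encoded by Calb1, accumulates as they mature. In whole hippocampus, fewer granule cells and less of a marker's RNA per cell cannot be told apart.

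Every value below comes from a probe of 60 bases, and those of the markers that were lowest in hetero-KO, of the identity factor and of a mossy fibre protein are shown because the results rest on them. They are given 5′ to 3′ as the deposited files hold them, the first pair and the last whole and the others to their first 30 bases, in lower case with no base marked.
Npnt, chr3:132547399-132547458, minus strand: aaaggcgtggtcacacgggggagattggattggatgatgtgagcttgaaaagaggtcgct
Tdo2, chr3:81765359-81765418, minus strand: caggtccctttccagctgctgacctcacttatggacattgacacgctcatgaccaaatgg
Dsp, chr13:38290121-38290180, plus strand: aaattacactgactactggtggcttagtac
Lct, chr1:130181389-130181448, minus strand: ctcatttcagggtttgatggtagactcaag
Prox1, chr1:191943668-191943727, minus strand: gtgcctctgagtgttacttaattgaagtat
C1ql2, chr1:122238262-122238321, plus strand: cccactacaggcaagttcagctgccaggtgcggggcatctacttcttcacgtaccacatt
Coordinates are those of the files, on mouse build mm9, and span the whole probe. The other representing probes lie on chromosome 4 (Calb1, 15832543 to 15832602), chromosome 10 (Plk5, 79828119 to 79828178) and chromosome 12 (Stxbp6, 45953493 to 45953552). Exon and coding limits were not analysed here.

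The 75th percentile of the signal, by which each array was scaled, ranged from 1714 to 2111, and 77.9% to 81.9% of spots were well above background. All 9 markers were well above background on all 4 arrays with no saturated or outlier spot. Levels are the signal divided by that percentile, and they compare arrays for 1 probe, not probes with each other. The scanner software's own error for a difference between a pair of arrays was 0.20 on the log2 scale for 8 of the markers and 0.21 for the dimmest, Npnt; it covers the spot and not the spread between mice. The pools also differed in sex-linked genes. The Y-linked Eif2s3y stood at a level of 0.673 in the WT pool of 4 months. In the hetero-KO pool of that age it was not well above background (0.00168). It stood at 1.30 (WT) and 1.33 (hetero-KO) in the older pools. The 18-month pair was thus matched in this gene and the 4-month pair was not. Xist stood at 0.164 (WT) and 0.231 (hetero-KO) in the younger pools and was not well above background in either older pool. The ages thus differed in Xist in both genotypes. The part of sex makeup in the results was not tested. For Zbtb18 itself the levels were 17.5 (WT) and 15.2 (hetero-KO) in the younger pools, 18.9 and 21.4 in the older; whether its probe lies in the deleted part is unknown, so it does not check the genotype.

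The granule cell markers were lower in hetero-KO in most comparisons. They were chosen with earlier results of these data known, so their counts beside all genes are not an independent test. At 4 months all 9 were lower than in WT, where 55.6% of the 28408 genes measured on both arrays were, and at 18 months 8 of 9 were, where 52.1% of 27625 genes were. With normexp background the count at 4 months was 8 of 9, since Calb1 stood at 0.03. The 8 genes other than C1ql2 were lower at both ages, against 34.9% of the 27380 genes measured on all 4 arrays. The median difference over the 9 was -0.41 at 4 months and -0.27 at 18 months on the log2 scale, beside -0.02 and -0.01 over all genes. The markers were not equally affected: the difference over both ages ran from -0.77 for Dsp and Npnt to -0.07 for C1ql2.

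Prox1 was modestly lower. For Prox1 the 4-month arrays gave levels of 2.25 (WT) and 1.92 (hetero-KO), and the 18-month arrays 2.27 and 2.04. Both hetero-KO arrays lay below both WT arrays, by 14.8% at 4 months and 10.0% at 18 months, and the latter difference was smaller than the spot error. A further Prox1 probe, at 191946360 to 191946419 of chromosome 1, gave larger differences of the same sign, -0.38 at 4 months and -0.25 at 18 months against -0.23 and -0.15. Over both ages the Prox1 difference was -0.19 ± 0.05 (SE, limma adjusted p = 0.355), which did not pass the threshold of 0.05.

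The markers that stood lowest in hetero-KO belong to cell junctions and the extracellular matrix. Dsp encodes desmoplakin, which ties intermediate filaments to desmosomes. For Dsp the 4-month arrays gave levels of 1.42 (WT) and 0.793 (hetero-KO), and the 18-month arrays 1.47 and 0.903. The WT arrays were nearly level with each other and both hetero-KO arrays lay well below them, at 55.8% and 61.4% of WT. Npnt encodes nephronectin, a matrix protein that binds integrins. For Npnt the 4-month arrays gave levels of 0.108 (WT) and 0.0630 (hetero-KO), and the 18-month arrays 0.107 and 0.0626. The genotypes did not overlap and the ages were alike within each genotype, with hetero-KO at 58.6% and 58.4% of WT. These were the only members at least 1.5-fold apart at both ages, 2 of 9, against 0.478% of all genes lower by that much at both ages. With normexp background correction 0 of 9 were that far apart at both ages, where 1.5-fold is 0.58 on the log2 scale. Dsp then stood at -0.74 and -0.56 and Npnt at -0.49 and -0.53 at 4 and 18 months. Fewer genes of the whole array were that much lower with this correction, 155 against 769 at 4 months and 216 against 730 at 18 months. Over both ages the difference was -0.77 ± 0.06 for Dsp (SE, limma adjusted p = 0.132) and -0.77 ± 0.11 for Npnt (SE, limma adjusted p = 0.191), each 1.71-fold, and neither passed.

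The enzyme markers Tdo2 and Lct were also lower at both ages. Tdo2 encodes tryptophan dioxygenase, which opens the kynurenine pathway of tryptophan breakdown. For Tdo2 the 4-month arrays gave levels of 0.350 (WT) and 0.262 (hetero-KO), and the 18-month arrays 0.373 and 0.270, so that hetero-KO stood at 75.1% and 72.5% of WT with no overlap of the genotypes. Lct encodes lactase, the milk sugar enzyme of the gut, and is used as a granule cell marker in mouse hippocampus. For Lct the 4-month arrays gave levels of 6.05 (WT) and 4.14 (hetero-KO), and the 18-month arrays 8.50 and 6.81. Here hetero-KO was the lower array at each age, at 68.4% and 80.1% of WT, but the hetero-KO array of 18 months lay above the WT array of 4 months. Over both ages the differences were -0.44 ± 0.07 for Tdo2 (SE, limma adjusted p = 0.223) and -0.43 ± 0.07 for Lct (SE, limma adjusted p = 0.211).

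Plk5, a brain-expressed member of the polo-like kinase family, followed the same order of arrays as Dsp. For Plk5 the 4-month arrays gave levels of 5.01 (WT) and 3.69 (hetero-KO), and the 18-month arrays 5.30 and 4.43, a difference of -0.44 and -0.26 that exceeded the spot error at each age (over both, -0.35 ± 0.06 SE, limma adjusted p = 0.233).

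**Figure D1:**
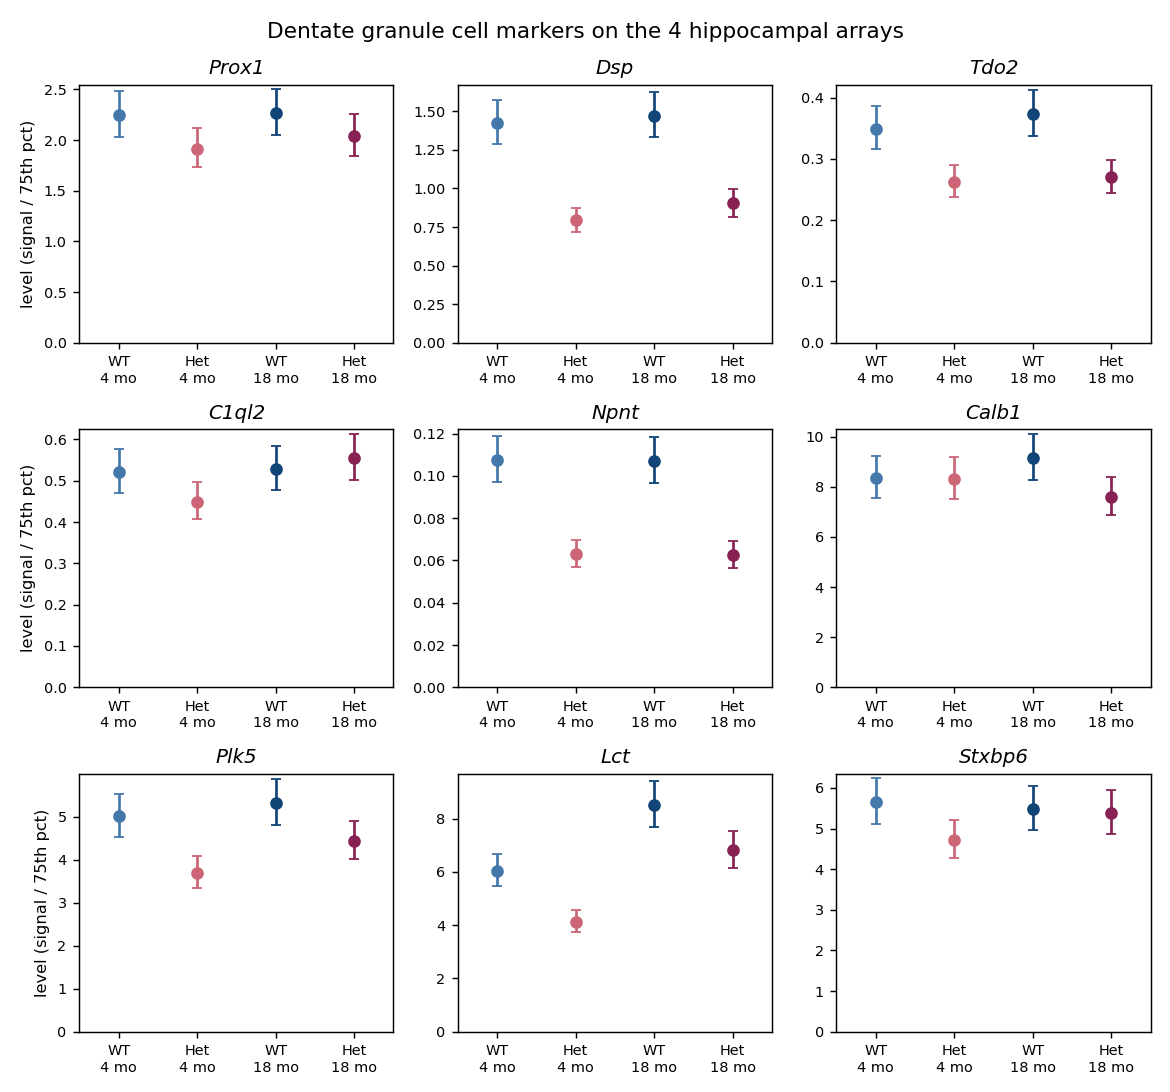
Level of each of the 9 markers (signal divided by the array's 75th percentile, linear axis from 0) on the 4 arrays, WT in blue and hetero-KO (Het) in red; each point is 1 pooled array and the bar is the scanner software's spot error. Dsp, Npnt, Tdo2 and Plk5 show both hetero-KO points below both WT points with no bars crossing at 4 months, while the C1ql2 points show no such order and the Calb1 points of 4 months, 8.34 and 8.32, cannot be told apart by eye.

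The synaptic markers and calbindin differed least over both ages, and not alike at each. C1ql2, a secreted C1q-like protein that in mouse organises mossy fibre synapses on CA3 cells, stood at levels of 0.521 (WT) and 0.450 (hetero-KO) on the 4-month arrays and of 0.528 and 0.556 on the 18-month arrays. It was the member that was higher in hetero-KO at 18 months, by 0.07, less than the spot error. Stxbp6 encodes amisyn, a syntaxin-binding protein of the exocytosis machinery. For Stxbp6 the 4-month arrays gave levels of 5.65 (WT) and 4.72 (hetero-KO), and the 18-month arrays 5.48 and 5.37, when the arrays differed by 1.87%. Calb1 stood at levels of 8.34 (WT) and 8.32 (hetero-KO) on the 4-month arrays, and of 9.16 and 7.59 on the 18-month arrays. It thus differed by 0.22% at 4 months and by 17.1% at 18 months. Over both ages the differences were -0.07 ± 0.09 for C1ql2, -0.14 ± 0.07 for Stxbp6 and -0.14 ± 0.07 for Calb1 (SE, limma adjusted p = 0.773, 0.492 and 0.526).

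All 3 probes of Calb1 gave the same pattern. At 4 months their differences were -0.00, -0.01 and 0.01, and at 18 months -0.27, -0.43 and -0.36, each beyond a spot error of 0.20 to 0.21. The change of the genotype difference between the ages was not tested, since the model with that term has no residual degree of freedom.

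**Figure D2:**
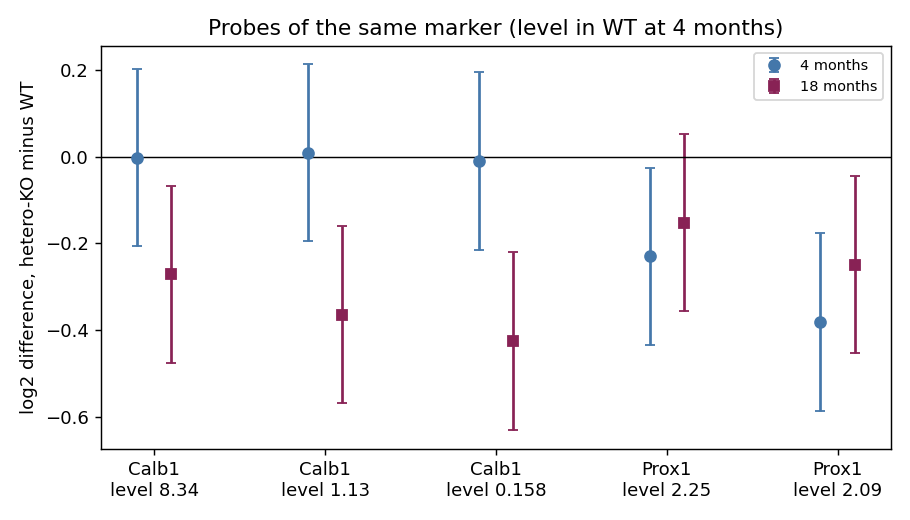
Difference of hetero-KO from WT (log2) for the 3 probes of Calb1 and the pair of Prox1, at 4 months (circles) and 18 months (squares); bars are the scanner software's spot error and each probe is named by its level in WT at 4 months. The Calb1 probes lie at 0 at 4 months and between -0.27 and -0.43 at 18 months, and the Prox1 probes lie below 0 at both ages.

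No member passed the genotype test over both ages by limma with Benjamini-Hochberg adjustment over the 29088 genes tested, and 0.0103% of all genes were called higher and 0.00% lower. With an unadjusted p under 0.05 in the same fit, 6 of 9 members (Dsp, Npnt, Lct, Tdo2, Plk5 and Prox1) lay below WT, as did 6.30% of all genes, and 0 lay above it, as did 5.14%. Both hetero-KO arrays lay below both WT arrays for 7 of 9 members, all but C1ql2 and Lct, against 21.1% of the genes measured on all 4 arrays. Calb1 is among the 7 by a margin of 0.003 on the log2 scale. By a fold of 1.5 or more, 2 of 9 were lower at 4 months (2.71% of all genes) and 2 of 9 at 18 months (2.64%), Dsp and Npnt each time, and 0 were higher at either age (1.82% and 2.11%). With normexp background these counts were 1 of 9 at 4 months, Dsp, and 0 of 9 at 18 months. The same setting brought the genes lower by that much from 769 to 155 at 4 months and from 730 to 216 at 18 months. The fit has 1 residual degree of freedom, which is the change of the genotype difference between the ages. Its SE and p-values rest on that change, drawn toward a trend over the genes tested. They measure neither a spread between arrays of a group nor one between mice.

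**Figure D3:**
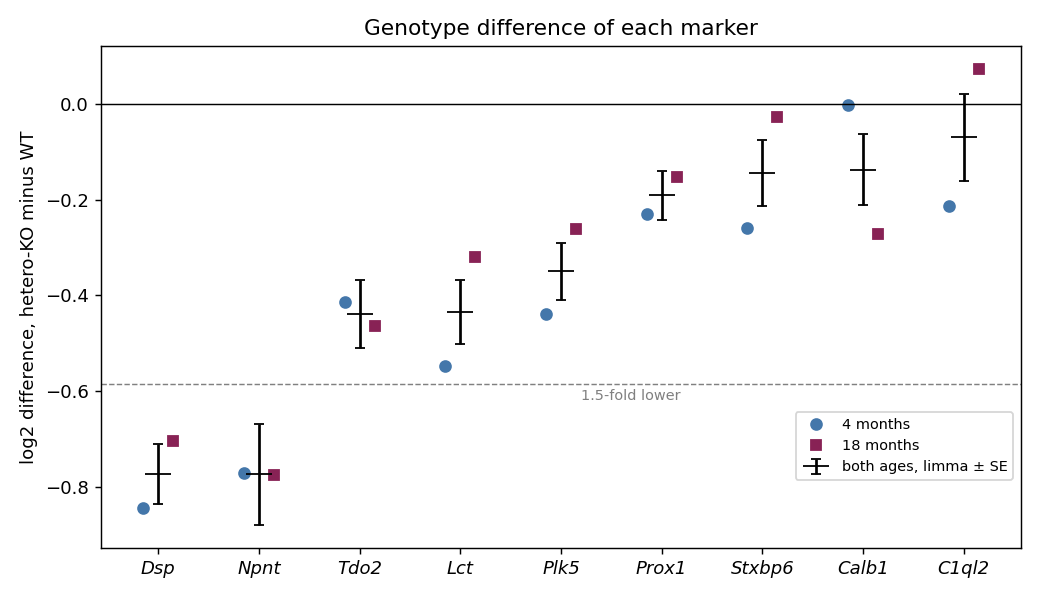
Difference of hetero-KO from WT for each marker (log2, vertical axis) at 4 months (circles) and 18 months (squares), with the limma estimate over both ages and its SE (black), ordered by that estimate; the dashed line marks 1.5-fold lower. Dsp and Npnt lie under the dashed line at both ages, and C1ql2 at 18 months is the single point above 0.

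A further list of 14 dentate granule cell genes was mostly lower by smaller amounts. All 14 were measured on all 4 arrays; 12 were lower in hetero-KO at 4 months (median -0.15), 11 at 18 months (median -0.18) and 10 at both ages, with 0 past the limma threshold; 7 of them were below WT and 1 above it with an unadjusted p under 0.05. Slc30a3, the vesicular zinc transporter of mossy fibres, stood at levels of 0.433 (WT) and 0.304 (hetero-KO) at the younger age and of 0.483 and 0.398 at the older. Glis3, a zinc finger transcription factor, stood at levels of 0.287 and 0.238, and of 0.372 and 0.271, in the same order. C1ql3, the relative of C1ql2, differed by -0.20 and -0.17 at 4 and 18 months. The guidance molecule Sema5b went the other way at both ages, by 0.36 and 0.50.

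Lists of other hippocampal cells had medians above that of the 9 markers at each age. The median differences at 4 and 18 months were -0.09 and -0.04 for 9 CA1 pyramidal genes, -0.32 and 0.22 for 6 CA2 genes, 0.10 and 0.14 for 7 CA3 genes, -0.02 and 0.02 for 8 mossy cell genes and 0.17 and 0.03 for 10 interneuron genes. They were -0.09 and 0.05 for 12 glial and endothelial genes and -0.05 and -0.11 for 8 neocortex and entorhinal genes. Of the neuronal lists of the hippocampus, the number lower at both ages was 5 of 9 for CA1, 2 of 6 for CA2, 1 of 7 for CA3, 2 of 8 for mossy cells and 2 of 10 for interneurons. Of 12 progenitor and immature granule neuron genes, 11 were measured on all 4 arrays; 3 were lower and 4 higher at both ages, with medians of 0.13 at 4 months and -0.12 at 18 months. Their largest differences of one sign at both ages ran both ways. The proneural factor Neurog2, a dim signal, stood at levels of 0.0455 (WT) and 0.133 (hetero-KO) in the younger pools and of 0.0422 and 0.0983 in the older, a difference of 1.38 ± 0.14 over both ages (SE, limma adjusted p = 0.142). The neuronal tubulin gene Tubb3 differed by 0.25 and 0.20. Lower were Calb2, the calcium buffer calretinin, which is also a mossy cell gene (-0.22 and -2.37), and Neurod1, a factor that granule cells use as they mature (-0.19 and -0.13).

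Markers of tissue outside the hippocampus proper also differed between the genotypes. All 10 choroid plexus genes were lower in hetero-KO at both ages, with medians of -0.39 and -0.83, beside -0.41 and -0.27 for the 9 markers, and 8 of the 10 were at least 1.5-fold lower at 18 months. Sostdc1 stood at -0.67 and -0.95 and F5 at -0.52 and -1.07. Their summed level, most of which is the transport protein gene Ttr (-0.27 and -0.17), was 110 (WT) and 88.8 (hetero-KO) in the younger pools, 128 and 102 in the older. The 9 striatum genes were all higher at 4 months, with a summed level of 27.3 in hetero-KO against 12.7 in WT of the same age; the 18-month pools stood at 10.8 (WT) and 9.45 (hetero-KO). Adora2a (2.27 and 0.87) and Rgs9 (1.70 and 0.24) were the farthest above WT of those higher at both ages. The summed level of 10 thalamus and habenula genes was 33.5 (WT) and 26.9 (hetero-KO) in the younger pools, 14.8 and 12.5 in the older. Summed levels weigh bright probes more than dim ones. Pou4f1 alone held 4.94 (WT) and 5.96 (hetero-KO) of the older sums. Of the 9 thalamus and habenula genes measured on all 4 arrays, 8 were lower in hetero-KO at 4 months and 3 at 18 months. In these lists Gbx2 of the thalamus was not well above background at 18 months, and every other gene was measured on all 4 arrays. The part of these tissues in the marker differences was not tested.

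**Figure D4:**
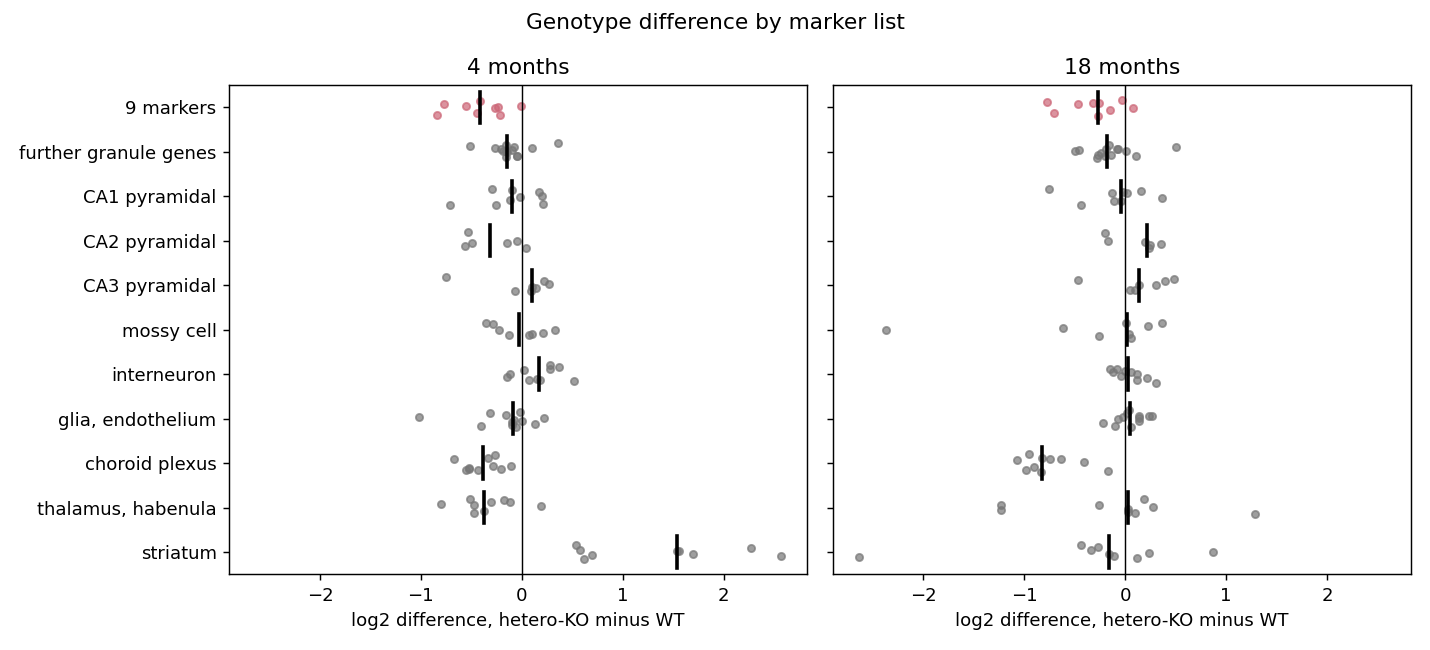
Difference of hetero-KO from WT (log2) for each gene of the 9 markers (red) and of 10 other lists (grey) at 4 months (left) and 18 months (right); each point is 1 gene measured on all 4 arrays and the black bar is the list's median. The markers' median lies at -0.41 and -0.27, that of the CA1 genes at -0.09 and -0.04, and that of the choroid plexus genes at -0.39 and -0.83.

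Genes that work beside the markers showed no common direction. Of the kynurenine pathway, 10 of 12 genes were measured on enough arrays to be tested, with 0 past the threshold for genotype; Ido2, an enzyme with the same substrate as Tdo2, was higher in hetero-KO by 0.61 and 0.64 at 4 and 18 months, and Kmo, which acts further down, stood at -0.40 and -0.45. Kynu and Acmsd were not tested. Among 9 tested genes of desmosomes and junction plaques, Dsp included, 2 were lower and 5 higher at both ages, with the desmosomal cadherin Dsg2 at -0.18 and -0.80 and periplakin, Ppl, at 0.21 and 0.57. Of 7 genes of nephronectin and its integrin receptors, Npnt and its relative Egfl6 were lower at both ages, while Itgav stood at 0.05 at each age. Egfl6, a dim signal with levels from 0.0123 to 0.0259, differed by -1.08 and -0.72. Among the C1q-like proteins and their partners, the kainate receptor subunit gene Grik4 differed by 0.27 and 0.14 and the pentraxin gene Nptx2 by 0.42 and 0.90. Of the 5 polo-like kinases Plk5 was the only one lower at both ages. The 4 others were higher at both by small amounts, at most 0.14, for Plk3 at 4 months. Of 11 syntaxin-binding and SNARE genes, 5 were lower and 3 higher at both ages. The lists of EF-hand calcium-binding proteins and of transcription factors of granule cell formation had medians over both ages of -0.01 and -0.05. None of the genes in these lists passed the genotype test.

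For the 5 markers whose log2 values ranged over 0.5 or more, the 3 genes nearest to them over the 4 arrays were found among 19188 others with an official symbol, by Euclidean distance of centred log2 values. Fabp12, Krt8 and Clic3 lay nearest to Dsp (distances 0.07 to 0.09). Dnajb13, Slc4a5 and Klhl31 lay nearest to Npnt (0.07 to 0.08), and Col8a2, Lrrc46 and Gm30931 to Tdo2 (0.03). Efna1, Lce1k and Npbwr1 lay nearest to Plk5 (0.02 to 0.04), and Cdhr4, Olfr974 and Hoga1 to Lct (0.05 to 0.10). With 4 points a profile holds little.

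Between 4 and 18 months Lct was the marker with the largest difference in both genotypes. In WT 7 of 9 were higher at 18 months (58.4% of genes were), with differences from -0.05 for Stxbp6 to 0.49 for Lct and a median of 0.05, and only Lct exceeded its spot error. In hetero-KO 7 of 9 were higher (59.4% of genes), with a median of 0.19; Lct at 0.72, C1ql2 at 0.31 and Plk5 at 0.26 exceeded the spot error, and Calb1 stood at -0.13. At least 1.5-fold higher were 0 of 9 in WT (2.56% of genes) and 1 of 9 in hetero-KO (3.68%), Lct by 1.64-fold, and 0 of 9 were that much lower in either (2.72% and 3.06%).

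Over both genotypes Lct rose with age by 0.60 ± 0.07 (SE, limma adjusted p = 0.0460), that is 1.52-fold, and was the 1 member of 9 called higher, against 1.08% of all genes; none was called lower, against 0.560%. The call is close to the threshold: it was lost with quantile normalization (0.53, limma adjusted p = 0.0724) and under 4 further settings. For the other 8 members the age difference ran from -0.01 for Npnt to 0.17 for Plk5 (limma adjusted p from 0.185 to 0.994). The part of sex makeup and of tissue outside the hippocampus in the age difference was not tested; 8 of 10 thalamus and habenula genes fell with age by the same test, with log2 differences from -1.23 for Prkcd to -4.54 for Shox2, the others being Tcf7l2, Gbx2, Lef1, Slc17a6, Synpo2 and Tnnt1.

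The deposited table of all samples gives another picture at 18 months. Its 4-month columns are the 4-month arrays, but its 18-month columns match neither 18-month array (highest correlation with any array 0.985 over log2 values), so which RNA they hold is unknown, and they were kept apart. In the authors' deposited table Dsp stood at 1.41 and 0.788 in WT and hetero-KO at 4 months and at 0.0174 and 0.0133 at 18 months, 81.3-fold and 59.4-fold lower. Lct stood at 6.01 and 4.11, and at 0.0963 and 0.206, 62.5-fold and 19.9-fold lower, in the authors' deposited table. The table holds no detection marks; the lowest value of a probe well above background in its 4-month columns was 0.00573 in WT and 0.00668 in hetero-KO.

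C1ql2, Prox1 and Tdo2 were also lower in the 18-month columns. In the authors' deposited table C1ql2 stood at 0.518 and 0.447 at 4 months and at 0.0429 and 0.0471 at 18 months, about the same in the genotypes. Prox1 stood at 2.24 and 1.90, and at 0.364 and 0.314 in the authors' deposited table, 6.14-fold and 6.07-fold lower, and its further probe stood at 2.08 and 1.59, and at 0.455 and 0.333. In the authors' deposited table Tdo2 stood at 0.348 and 0.261, and at 0.0717 in both 18-month columns, 4.85-fold and 3.63-fold lower. By this measure 5 of 9 members were at least 4-fold lower in the WT column of 18 months than in that of 4 months, against 1.70% of genes. In the hetero-KO column 4 of 9 were, against 1.61%. The 4-fold mark was chosen after seeing the data. At 1.5-fold 5 of 9 were lower in each genotype, against 11.95% of genes in WT and 10.9% in hetero-KO.

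The other 4 markers did not share this. In the authors' deposited table Calb1 stood at 9.16 and 9.92 in WT and hetero-KO at 18 months, Stxbp6 at 4.33 and 4.07, Plk5 at 3.45 and 3.92 and Npnt at 0.112 and 0.101, each within 1.61-fold of its 4-month column. The 14 further granule genes had a median log2 difference between the ages of -0.16 in WT and 0.05 in hetero-KO in that table, beside -2.28 and -1.86 for the 9 markers and -0.07 and -0.03 for all genes. Other lists differed in the same columns of the authors' deposited table: the summed value of 8 neocortex and entorhinal genes went from 8.36 and 8.67 at 4 months to 32.4 and 32.9, that of 10 choroid plexus genes from 109 and 88.2 to 18.8 and 4.93, and the CA1 list had medians of -1.01 and -0.91. The columns are labelled hippocampus like the others, and in both of them 4 of the 9 granule cell markers lie at least 4-fold below the 4-month columns. What tissue they represent was not tested.

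Between the genotypes, the table's 18-month columns did not repeat the order of the 18-month arrays. The authors' deposited table gave 4 of 9 markers lower in hetero-KO, with a median log2 difference of 0.00 (0.00 over all genes). Lct was 2.14-fold higher there, the single member past 1.5-fold upwards against 2.13% of genes, and 0 were past it downwards, against 3.05%. Prox1 (-0.22) and Dsp (-0.39) were lower, at the low values given above.

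**Figure D5:**
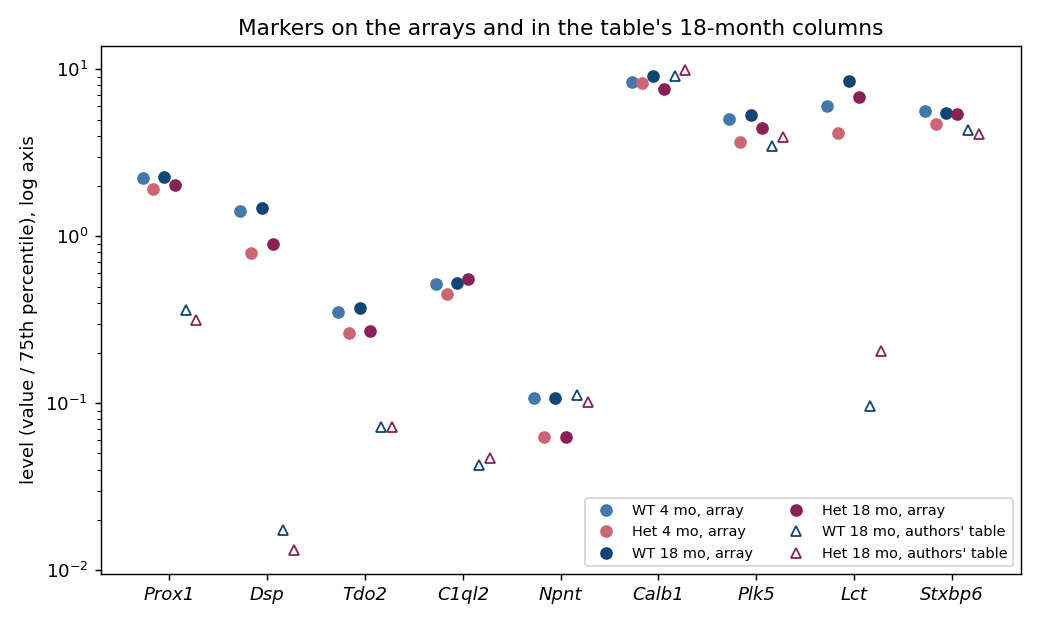
Level of each marker (log axis) on the 4 arrays (filled circles) and in the 18-month columns of the authors' table (open triangles). The triangles of Prox1, Dsp, Tdo2, C1ql2 and Lct lie 3.63-fold to 81.3-fold below the 4-month values, and those of Npnt, Calb1, Plk5 and Stxbp6 lie among or near the circles.

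Since the targeted gene encodes a DNA-binding repressor whose known site holds the letters ACATCTG, the 250 bases before the transcription start were searched on both strands in the 10 RefSeq promoter windows of the markers other than Calb1 (GRCm38.p6). No window held ACATCTG, where 3.71% of 32851 windows of the same length did. The shorter CATCTG, which ACATCTG contains, was in 1 of the 10, a Prox1 window, where 14.4% of all windows held it. That window and the one of Dsp, the marker with the lowest ratio to WT at 4 months, are shown with the match in capitals, read here on the opposite strand as CAGATG from 179 bases before the start.
Prox1, chr1:190170828-190171077, minus strand: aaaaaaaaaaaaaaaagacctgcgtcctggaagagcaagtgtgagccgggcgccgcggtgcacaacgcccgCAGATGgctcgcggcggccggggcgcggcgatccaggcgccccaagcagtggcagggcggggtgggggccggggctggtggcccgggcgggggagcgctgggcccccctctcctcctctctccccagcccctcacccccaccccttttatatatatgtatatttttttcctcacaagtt
Dsp, chr13:38151044-38151293, plus strand: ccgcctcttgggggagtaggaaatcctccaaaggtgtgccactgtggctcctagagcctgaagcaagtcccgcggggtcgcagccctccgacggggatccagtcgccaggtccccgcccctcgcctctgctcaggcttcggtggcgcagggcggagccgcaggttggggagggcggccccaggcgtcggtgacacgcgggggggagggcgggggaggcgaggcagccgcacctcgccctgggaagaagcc
A match or its absence describes these letters in these windows and no more.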

How the data were processed

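Hippocampal total RNA was measured on 4 one-colour Agilent arrays. Spot intensity in the deposited scanner files is linear; Agilent Feature Extraction 11.5.1.1, per the file headers, detrended it across the array, subtracted negative controls and gave dim spots surrogate values. The authors' deposited table holds a linear ratio, which in the 4-month columns is the signal over the 75th percentile, with no centring per gene; the making of its 18-month columns (medians 0.0998 and 0.0987) is not stated. The software's 0 or 1 marks for detection, saturation and outliers were used as deposited.

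Log2 signal minus the array's own 75th percentile was averaged over a probe's spots. The probe with the highest mean level stood for a gene; 32994 probes matched a RefSeq accession (GRCm38.p6, names only). A probe counted as measured where 50% or more of its spots were well above background. Genes measured on 2 or more arrays, 29088 in all, were fitted in limma 3.58.1 (R 4.3.3) with additive genotype and age, eBayes with trend, and Benjamini-Hochberg adjusted p judged at 0.05; the fit was tested on simulated data. Pairs of arrays were not tested and were read at 1.5-fold. The members and lists were chosen with earlier results of these data known. The rule for named genes took all 9 markers, genes past a limma threshold, Zbtb18 and the nearest profiles. It also took, of each other list, the 2 largest genotype differences each way with the same sign at both ages. Of its genes outside the markers the text names some, chosen after their values were seen, and gives the rest in their list's counts. Ttr, Eif2s3y, Xist, Kynu and Acmsd lie outside the rule. Alternatives were background correction, normalization, probe choice, dim-probe filter, variance trend, model terms, fold and the authors' table. The number of arrays limits the precision.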

Additional observations from a re-analysis of the deposited data

Results flagged for a closer look

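The genotype difference of C1ql2 was -0.21 at 4 months and 0.07 at 18 months, opposite in sign. The age difference of Calb1 was 0.14 in WT and -0.13 in hetero-KO, and that of Stxbp6 was -0.05 in WT and 0.19 in hetero-KO. Each rests on 1 array a group, none of these contrasts between ages or genotypes was tested, and of the 6 values C1ql2 at 4 months alone exceeded its spot error of 0.20.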

How the results depend on the processing

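The 9 markers were lower over both ages with normexp background and with quantile normalization, as in the main setting. In the authors' table, Calb1 stood at 0.055 and Lct at 0.28, and the other markers were lower. The mean of probes could change only Calb1 and Prox1, which stayed lower (-0.18 and -0.25). The dim-probe filter, the limit to genes measured on all 4 arrays, the variance trend and the model terms leave a marker's difference unchanged. They can alter its p-value but cannot test its sign. None of the markers passed the genotype threshold in any setting. With normexp, Calb1 at 4 months turned to 0.032, and Npnt stood at -0.49 and -0.53 at 4 and 18 months. Genes called higher in hetero-KO numbered 3, and 9 with normexp background, 8 measured on all 4 arrays, 1 each with the mean of probes, the authors' table and genotype alone, and 0 with no filter or no variance trend; those called lower numbered 0, and 5, 2 and 7 with normexp, all 4 arrays and the table. Genes higher with age numbered 314, and 1050 (normexp), 54 (quantile), 4 (mean of probes), 4591 (table), 551 (all 4 arrays), 49 (age alone) and 0 (no filter or no trend); lower, 163, and 288, 116, 10, 5284, 211, 64 and 0 in the same order. Quantile normalization moved the higher share of age calls from 65.8% to 31.8%. The Lct age call was lost with quantile normalization, the mean of probes, no filter, no trend and age alone (limma adjusted p 0.0724 to 0.319).

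Each pair of counts here gives normexp at 1.5-fold first and the main signal at 2-fold second. At 4 months the genes past the mark were 207 and 200 higher and 155 and 180 lower. At 18 months they were 173 and 145 higher and 216 and 169 lower. By age in WT they were 258 and 219 higher and 233 and 234 lower. By age in hetero-KO they were 372 and 303 higher and 353 and 306 lower. At 1.5-fold the table gave 2111 higher and 3225 lower by age in WT, and 1938 and 2792 in hetero-KO. These were not counted over all 29088 genes tested, as the 4-fold counts and the shares given above were. Over that set the table gave 2255 higher and 3476 lower in WT, and 2226 and 3161 in hetero-KO. At 4-fold, chosen after seeing the data, the table gave 495 lower in WT and 469 lower in hetero-KO. Its 18-month columns gave 207 higher and 331 lower at 2-fold. Age differences turned sign with the table for Prox1 (-2.61), Dsp (-6.12), Tdo2 (-2.07), C1ql2 (-3.42), Npnt (0.38), Plk5 (-0.22), Lct (-5.14; -4.32 in hetero-KO) and Stxbp6 (-0.29), for Npnt with normexp (0.036) and quantile (0.0050), and for Calb1 with quantile (-0.084) and mean of probes (-0.028). The cause was not tested. No paired analysis was possible because each group is 1 array; leaving an array out leaves no residual degree of freedom.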

Other observations

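Outside the granule cell lists, some genes of other hippocampal cells were lower in hetero-KO at both ages. Wfs1, a marker of CA1 pyramidal cells, stood at levels of 8.50 (WT) and 5.18 (hetero-KO) in the younger pools and of 10.4 and 6.15 in the older, a difference of -0.73 ± 0.04 over both ages (SE, limma adjusted p = 0.0656). Nmb, a peptide gene of mossy cells, differed by -0.35 and -0.62, and Man1a, an enzyme of glycan trimming, by -0.25 and -0.44. Higher at both ages were Ociad2 of the mossy cell list (0.33 and 0.37) and Nectin3 (0.22 and 0.39) and Homer3 (0.14 and 0.48) of the CA3 list. Of the interneuron genes, Vip (0.52 and 0.30) and Reln (0.28 and 0.12) were higher, and of the CA1 genes Fibcd1 was (0.21 and 0.15). The CA2 gene Ntf3 (-0.53 and -0.17) and the dim CA3 gene Iyd (-0.75 and -0.47) were lower. None of these passed the threshold.

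Outside the thalamus list, 7 listed genes passed the age test over both genotypes (limma, adjusted p 0.0319 to 0.0484). Pcp4, a calmodulin-binding peptide gene of CA2 cells, fell by 0.68 and Pvalb, the calcium buffer of fast-spiking interneurons, fell by 0.47 on the log2 scale. The microglial genes Cx3cr1 and Tmem119 rose by 0.52 and 0.46, the calcium sensor Hpca by 0.47, the junction plaque gene Pkp4 by 0.39 and the CA3 gene Dkk3 by 0.38.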
